A study of Mus musculus with 6 samples.

Results

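The lysosome breaks down proteins, lipids and glycans, and the 40 genes described here encode its hydrolases, the cathepsins among them, and proteins of its membrane. They were listed by name, and the list was chosen by measured values in part: the Ly6C-high and Ly6C-low levels of these same libraries were known when it was drawn up. The difference between the 2 groups is therefore given below as a description of the members. All 40 were found among the 35853 genes that the transcript tables summed to. By role they comprise 9 proteases, 12 genes of lipid and glycolipid breakdown, 9 of glycan, glycosaminoglycan and glycogen breakdown, 7 membrane proteins and 3 others.

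The cells were neutrophils from the blood of BALB/C mice labelled WT, each bearing an orthotopic tumour of 4T1, a mouse mammary carcinoma line, with blood taken 4 weeks after implantation. Cells positive for Ly6G, a neutrophil surface marker, were sorted by the level of a second surface marker into 3 Ly6C-high and 3 Ly6C-low libraries, and all 6 came from tumour-bearing animals. Nothing in the labels ties a library to its own mouse. The spread behind each p-value is that of 3 sorted libraries a group and may be technical. Poly(A) RNA was sequenced, and the tables gave an estimated count and a TPM (a level per transcript length, scaled to 1 sum in every library) for each transcript.

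Lysosomal hydrolases are made as precursors, sorted to the organelle mostly by a mannose 6-phosphate tag, and work in the acid that a proton pump maintains. Some need a partner to reach their substrate: the GM2 activator protein (Gm2a) lifts the ganglioside GM2 out of the membrane for the enzyme that Hexa takes part in, and the saposins cut from prosaposin (Psap) serve other glycolipid hydrolases. Neutrophils carry lysosomal hydrolases together with the peroxidase and elastase of their azurophil granules. Many lysosomal genes are targets of TFEB, a transcription factor that binds the CLEAR element, an E-box (CACGTG) in a wider palindrome.

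In 7 of the 39 members that passed the filter on low counts (17.9%), every Ly6C-low library lay above every Ly6C-high library. The same held for 10.9% of all genes tested. The reverse held for 1 member (2.56%), beside 10.3% of all genes tested. The 7 members were Gm2a, Ppt1, Sgsh, Gaa, Ctsa, Mcoln1 and Naglu. The RefSeq sequence just before their transcript starts is shown with each E-box marked, a feature not used in listing the members. Each line gives the gene's own strand 5′ to 3′, from 150 bases before the start to 20 bases after it, in build GRCm38.p6, with every CACGTG in capitals. This group was picked by its difference between the sorted populations, so its E-boxes are a description and no test of a link to that difference.
Gm2a, chr11:55097835-55098004, plus strand: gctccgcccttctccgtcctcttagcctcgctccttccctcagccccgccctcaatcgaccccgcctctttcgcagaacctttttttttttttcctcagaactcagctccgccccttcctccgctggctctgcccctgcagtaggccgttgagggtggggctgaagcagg
Ppt1, chr4:122836077-122836246, plus strand: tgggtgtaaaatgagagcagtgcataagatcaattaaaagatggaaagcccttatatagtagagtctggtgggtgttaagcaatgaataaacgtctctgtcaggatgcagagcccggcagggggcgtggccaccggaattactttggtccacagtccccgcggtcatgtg
Sgsh, chr11:119355491-119355660, minus strand: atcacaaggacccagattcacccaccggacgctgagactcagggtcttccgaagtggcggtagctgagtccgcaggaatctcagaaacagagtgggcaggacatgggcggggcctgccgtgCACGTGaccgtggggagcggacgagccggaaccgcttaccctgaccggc
Gaa, chr11:119267813-119267982, plus strand: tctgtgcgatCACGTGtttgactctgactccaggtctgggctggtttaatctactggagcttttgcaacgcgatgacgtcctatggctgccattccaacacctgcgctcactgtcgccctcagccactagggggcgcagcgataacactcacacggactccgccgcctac
Ctsa, chr2:164833623-164833792, plus strand: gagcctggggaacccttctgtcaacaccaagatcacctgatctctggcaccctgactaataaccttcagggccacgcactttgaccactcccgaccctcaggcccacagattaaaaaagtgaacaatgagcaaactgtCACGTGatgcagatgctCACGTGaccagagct
Mcoln1, chr8:3500369-3500538, plus strand: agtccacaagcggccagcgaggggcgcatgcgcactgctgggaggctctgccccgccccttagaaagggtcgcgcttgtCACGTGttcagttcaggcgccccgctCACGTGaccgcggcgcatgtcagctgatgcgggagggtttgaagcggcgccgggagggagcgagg
Naglu, chr11:101069944-101070113, plus strand: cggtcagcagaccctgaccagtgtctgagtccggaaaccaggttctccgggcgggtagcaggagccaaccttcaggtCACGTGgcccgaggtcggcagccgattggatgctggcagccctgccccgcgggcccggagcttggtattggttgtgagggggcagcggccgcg
Sgsh, Gaa and Naglu each held 1 E-box in this stretch, Ctsa and Mcoln1 held 2 each, and Gm2a and Ppt1 held none. Ctsa had a second RefSeq start, whose window held no E-box. The E-boxes began 29 bases before the start in Sgsh, 140 in Gaa, 73 in Naglu, and 71 and 45 in Mcoln1. In Ctsa 1 began 12 bases before the start and the other just after it.

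Across the whole windows, 250 bases before to 50 after each start, 34 of the 40 members had a sequence and 12 of these (35.3%) held CACGTG, against 8.09% of the 27025 genes with a window and 11.4% of the 8663 tested genes with one. The other members with an E-box were the proteases Ctsd, Ctsl and Lgmn, the lipid hydrolases Gla, Glb1 and Arsa, and Lamp1, whose window held 4 of them. The longer form TCACGTGA, which contains CACGTG and is the core of the CLEAR element, was present in Ctsa, Ctsd, Gla and Mcoln1, or 11.8% of the members with a window, against 1.12% of all genes with one and 2.27% of those tested. Both motifs read the same on either strand. No window was given for Ctsb, Asah1, Hgsnat, Ctsh, Npc1 or Galns. A match describes the letters and shows no binding.

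Library totals ran from 17192372 to 20973623 estimated counts. The neutrophil genes S100a8, S100a9, Csf3r, Cxcr2, Ly6g and Mmp9 summed to between 348168 and 355845 TPM in the Ly6C-high and between 322372 and 338881 TPM in the Ly6C-low libraries, which did not overlap. The median log2 fold change of these 6 genes was 0.18, with 5 above 0, and edgeR called 0 of them. Their part in the members' values was not tested. The sort was reflected in Ly6c1 and Ly6c2, which encode the sorted marker, with log2 fold changes of 3.07 (SE 0.22, adjusted p = 0.00273) and 2.90 (SE 0.21, adjusted p = 0.00382) in Ly6C-high over Ly6C-low. Ly6C-low library 3 stood apart: its score on the first principal component was 38.02, against -19.65 to 3.91 for the other 5 libraries. Medians of the members, of their roles and of the other lysosomal lists, and the values of many members, are given with and without it. The E-box split below was made with it.

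Ctsd, the aspartic protease cathepsin D, led at 1305 ± 177 TPM (SD, n = 6 libraries) and held 25.2 to 30.9% of the members' summed TPM. Psap followed at 567 ± 63.9, then Ctsb, the cysteine protease cathepsin B, at 374 ± 63.2, Lamp2, a highly glycosylated protein of the lysosomal membrane, at 287 ± 23.8, and Man2b1, the acid alpha-mannosidase, at 246 ± 21. The top 5 members held 56.5 to 64.4% of the sum. Next came Ctsa (200 ± 33.9 TPM), the progranulin gene Grn (189 ± 28.6), Ppt1 (168 ± 17.3), Gm2a (144 ± 35.8) and Cd68 (116 ± 21). These 10 members reached 100 TPM.

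A further 21 members had mean levels of 10 to 100 TPM, from Lamp1 (99.3 ± 7.49) and Cd63 (81.8 ± 10.6), both membrane proteins, to Gusb, the beta-glucuronidase (11.9 ± 1.53). The other 9 were below 10 TPM: Sgsh, Arsa, Mcoln1, Lgmn, Gaa, Acp2, Glb1, Naglu and Gla, down to 1.76 TPM. Of the 39 pairs of neighbours in this order, 36 overlapped between libraries and their order is not settled. The 3 that did not were Ctsd above Psap, with a lowest Ctsd library of 1034 TPM and a highest Psap library of 649, Npc2 above Neu1, and Gusb above Sgsh. Part of the TPM of some members came from transcripts annotated as retaining an intron, 56.0% of Ctsb and 71.0% of Arsa in Ly6C-high cells, so that these levels are not all of coding transcripts.

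**Figure D1:**
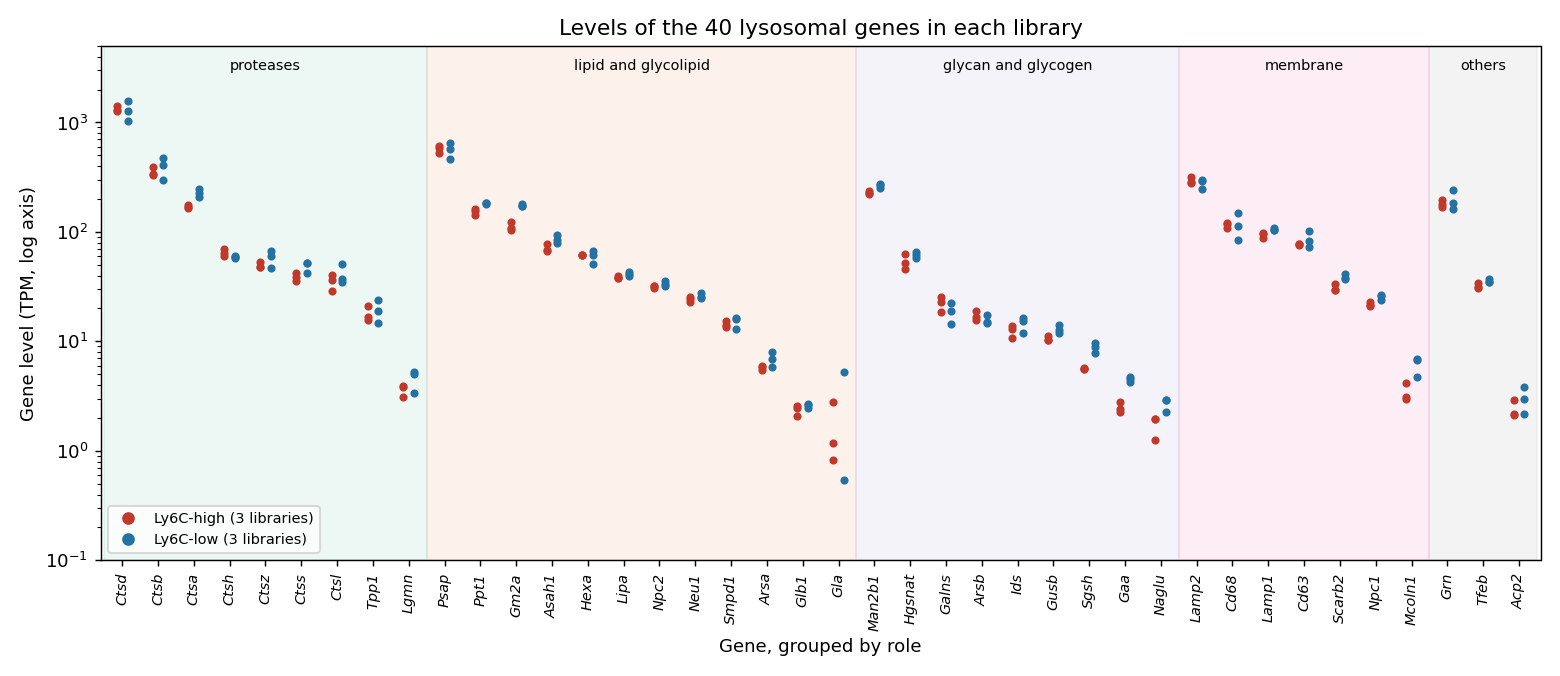
Level of each of the 40 members in each library, in TPM on a log axis, grouped by role and ordered by mean, with 3 Ly6C-high libraries (red) and 3 Ly6C-low libraries (blue). Ctsd stands above Psap in every library, and the 0 of Gla in Ly6C-low library 2 cannot be drawn on this axis.

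By role, the proteases summed to 2054 ± 108 TPM in Ly6C-high (SD, n = 3) and 2143 ± 378 in Ly6C-low libraries, the lipid and glycolipid genes to 1087 ± 42.4 and 1195 ± 98.6, the membrane proteins to 637 ± 31.3 and 657 ± 41.8, and the glycan and glycogen genes to 355 ± 10.4 and 403 ± 13.1. The glycan and glycogen sum was the one of these 4 whose groups did not overlap, at 347 to 367 TPM in Ly6C-high and 390 to 416 in Ly6C-low. Man2b1 made up most of it. In CPM the same sums met, at 1060 to 1134 and 1129 to 1242. All 40 members together summed to 4349 ± 158 TPM in Ly6C-high and 4634 ± 564 in Ly6C-low libraries, which overlapped. TPM in Ly6C-high lay lower across the whole table: the median TPM ratio of all tested genes was shifted by -0.1 on the log2 scale from that of the fit used below, so group differences are taken from normalised counts.

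Differences between the groups were estimated with edgeR on the estimated counts of all 11406 genes kept by its filter, and CPM below means its TMM-scaled counts over library size, the usual normalised count. Of the 39 members tested, 0 passed an adjusted p of 0.05 (Benjamini-Hochberg over all genes), where 0.0351% of all genes tested did. At an unadjusted p of 0.05, 7 members (17.9%) were lower in Ly6C-high, beside 7.34% of all genes, and 1 (2.56%) was higher, beside 6.92%. DESeq2 gave an adjusted p to 35 members and called 2 of them (5.71%), Gm2a and Sgsh, both lower in Ly6C-high. It called 1.86% of the 6762 genes to which it gave an adjusted p. limma's voom called 0, beside 0.0263% of all genes. The groups did not overlap, with Ly6C-low above, in 7 members (17.9%), beside 10.9% of all genes, and with Ly6C-high above in 1 (2.56%), beside 10.3%. These shares describe genes chosen with this contrast known.

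The log2 fold changes of the 39 members, Ly6C-high over Ly6C-low, had a median of -0.07 and quartiles of -0.2 and 0.01, with 28 below 0 and 11 above. All genes tested had a median of -0.004, quartiles of -0.18 and 0.15, and 50.8% below 0. Without Ly6C-low library 3 the members' median was -0.16 and 31 were below 0. Scaling by library size alone moved the median of all genes by -0.11 and that of the members to -0.182. The median was -0.07 for the proteases (7 of 9 below 0), -0.01 for the 11 lipid and glycolipid genes tested (6 below 0), -0.11 for the glycan and glycogen genes (7 of 9) and -0.07 for the membrane proteins (5 of 7). Leaving out Ly6C-low library 3 gave -0.24, -0.05, -0.16 and -0.12 in the same order.

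**Figure D2:**
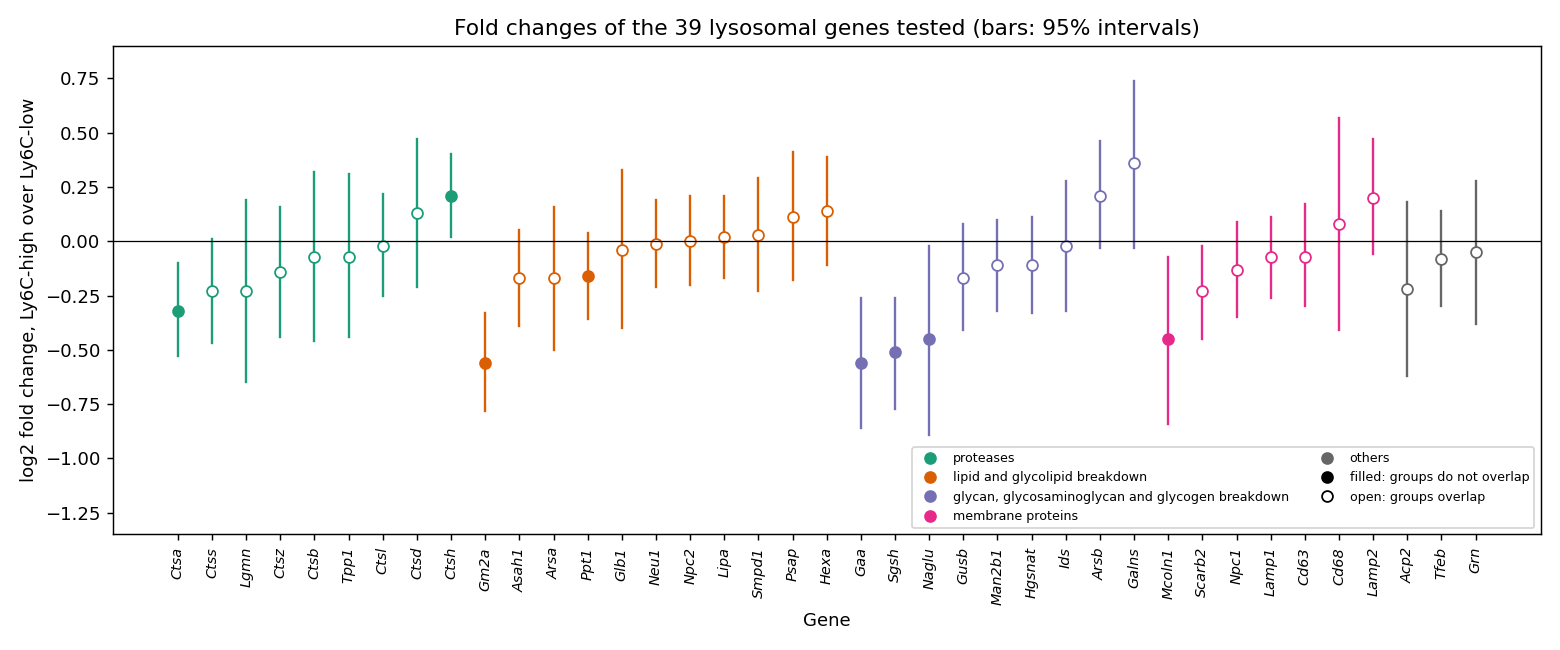
Log2 fold change of each of the 39 tested members, Ly6C-high over Ly6C-low, from the edgeR fit (points) with its 95% interval (bars), coloured by role. Filled points mark members whose groups do not overlap: Gm2a and Gaa lie at -0.56, Sgsh at -0.51, and Ctsh, the filled point above 0, at 0.21.

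Gm2a had the smallest p of the members. Its normalised count was 473, 407 and 394 CPM in the Ly6C-high libraries and 658, 617 and 597 CPM in the Ly6C-low libraries. The lowest Ly6C-low library stood well above the highest Ly6C-high one. The group means were 424 ± 42.3 and 624 ± 31.1 CPM (SD, n = 3 each), the log2 fold change was -0.56 (SE 0.10, 95% interval -0.78 to -0.33), and the adjusted p was 0.142 with edgeR, so the gene was not called. Without Ly6C-low library 3 the log2 fold change was -0.59 and the adjusted p 0.0194. With DESeq2 on all 6 libraries they were -0.55 and 0.000291, and with voom -0.56 and 0.232. With any other library left out the adjusted p with edgeR was 0.151 to 0.568, so the call depends on the method and the libraries. Gm2a has 1 annotated transcript, so its estimate does not depend on dividing reads between isoforms.

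Hexa, whose enzyme Gm2a serves, and Psap, the precursor of the other activators, both overlapped between the groups. Hexa had 107, 105 and 105 CPM in Ly6C-high and 111, 98.9 and 79.3 CPM in Ly6C-low libraries, with a log2 fold change of 0.14 (SE 0.11, adjusted p = 0.624). Without Ly6C-low library 3, the lowest of the 6, it was 0.02. Psap had 1386, 1410 and 1225 CPM in Ly6C-high and 1451, 1272 and 996 CPM in Ly6C-low libraries, with a log2 fold change of 0.11 (SE 0.14, adjusted p = 0.745), and -0.02 without Ly6C-low library 3, again the lowest of the 6.

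Ratios within a library do not depend on its scaling. Gm2a stood at 1.99, 1.75 and 1.69 TPM per TPM of Hexa in the Ly6C-high libraries and at 2.68, 2.82 and 3.40 in the Ly6C-low libraries, with means of 1.81 ± 0.158 and 2.97 ± 0.381. Per TPM of Psap it was 0.196 ± 0.0165 and 0.317 ± 0.0476. In both ratios every Ly6C-low library lay above every Ly6C-high library. Gm2a itself was apart while Hexa and Psap overlapped, so these ratios largely restate the Gm2a difference and are no separate support. The share of all gene pairs whose ratios do not overlap was not worked out. These ratios and those of other partners below therefore have no background and only describe the members.

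**Figure D3:**
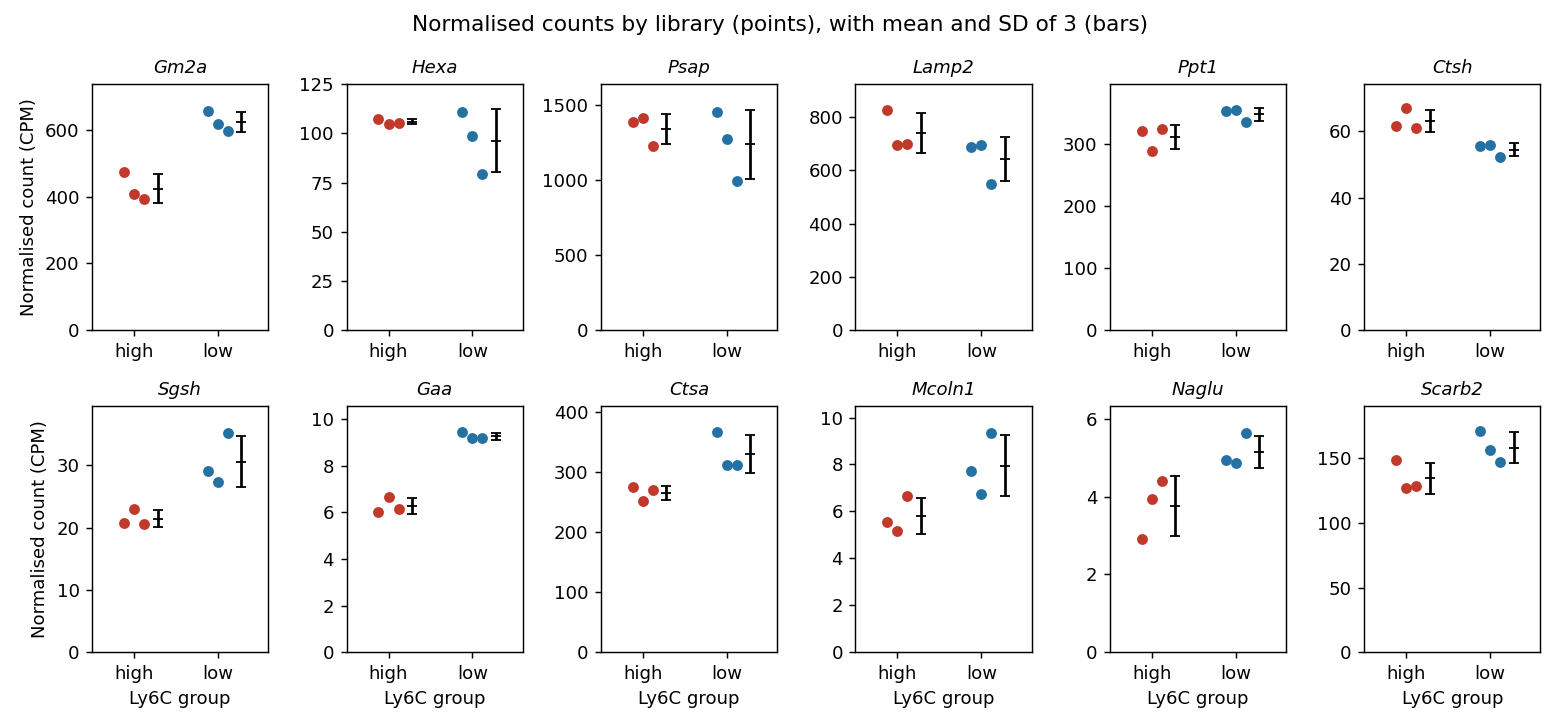
Normalised count (CPM, axes from 0) of Gm2a, Hexa, Psap and 9 other members in each library, with Ly6C-high in red and Ly6C-low in blue, and the mean and SD of 3 libraries as bars. The Gm2a groups are apart (394 to 473 against 597 to 658 CPM), while those of Hexa, Psap and Lamp2 overlap.

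The other lipid and glycolipid genes tested had log2 fold changes of -0.17 to 0.03. Ppt1, which removes palmitate from proteins, had 321, 288 and 324 CPM in Ly6C-high and 353, 354 and 336 CPM in Ly6C-low libraries. The groups did not overlap, and the log2 fold change was -0.16 (SE 0.09, adjusted p = 0.446). An exon of Ppt1 overlaps Cap1 on the opposite strand, which had 2406 CPM, and whether strand was used in counting is not given in the sources used here. Asah1, the acid ceramidase, had a log2 fold change of -0.17 (SE 0.10) and Arsa, which desulfates sulfatide, of -0.17 (SE 0.15). Glb1, the beta-galactosidase that acts on GM1, stood at -0.04 (SE 0.17), and Neu1, the sialidase, at -0.01 (SE 0.09). Npc2, the soluble carrier of cholesterol, was at 0.00 (SE 0.09), Lipa, the acid lipase, at 0.02 (SE 0.09), and Smpd1, the acid sphingomyelinase, at 0.03 (SE 0.12). The groups of these 7 genes overlapped. Without Ly6C-low library 3 Arsa stood at -0.32, Asah1 at -0.07, Smpd1 at -0.09, Lipa at -0.02, Npc2 at -0.05 and Neu1 at 0.03.

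Gla, the alpha-galactosidase, did not pass the filter and was not tested. Its estimated counts were 19.8, 6.6 and 2.9 in Ly6C-high and 1.3, 0 and 47.1 in Ly6C-low libraries, so that 1 library of each group carried most of them.

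Among the genes of glycan and glycogen breakdown, Sgsh, the sulfamidase of heparan sulfate breakdown, had 20.7, 23.0 and 20.5 CPM in Ly6C-high and 29.1, 27.4 and 35.2 CPM in Ly6C-low libraries. The groups did not overlap and Ly6C-low library 3 was the highest. Its log2 fold change was -0.51 (SE 0.12, adjusted p = 0.172 with edgeR and 0.0373 with DESeq2), and -0.40 without that library. Naglu, which acts in the same pathway, had 2.91, 3.95 and 4.41 CPM in Ly6C-high and 4.94, 4.87 and 5.62 CPM in Ly6C-low libraries, with a log2 fold change of -0.45 (SE 0.20, adjusted p = 0.338). Hgsnat, the membrane-bound acetyltransferase of that pathway, overlapped between the groups, at 110 ± 13.1 CPM in Ly6C-high and 119 ± 3.12 in Ly6C-low libraries.

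Gaa, the acid alpha-glucosidase that degrades glycogen, had 6.03, 6.67 and 6.12 CPM in Ly6C-high and 9.43, 9.17 and 9.17 CPM in Ly6C-low libraries. The libraries of each group lay close together and the groups were apart. The log2 fold change was -0.56 (SE 0.14, adjusted p = 0.192), or 1.48-fold more in Ly6C-low (95% interval 1.20 to 1.82). Gaa and Naglu rest on few reads, 114 to 189 and 55 to 106 estimated counts per library.

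The remaining genes of this role overlapped between the groups. Galns, a sulfatase of keratan sulfate breakdown, had the highest log2 fold change of all members, 0.36 (SE 0.17, adjusted p = 0.389), and 0.19 without Ly6C-low library 3. Arsb, a sulfatase of dermatan sulfate breakdown, stood at 0.21 (SE 0.11), Ids, the iduronate sulfatase, at -0.02 (SE 0.14), Gusb at -0.17 (SE 0.11) and Man2b1 at -0.11 (SE 0.10). Ids stood at -0.16 without Ly6C-low library 3. These 3 sulfatases and the sulfamidase Sgsh, which all act on glycosaminoglycans, ran from -0.51 to 0.36 and so fell on both sides of 0.

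Of the proteases, Ctsa and Ctsh were apart in opposite directions. Ctsa, a serine carboxypeptidase that also shields Neu1 and Glb1 in a complex, had 275, 253 and 270 CPM in Ly6C-high and 368, 312 and 313 CPM in Ly6C-low libraries. Its log2 fold change was -0.32 (SE 0.10, adjusted p = 0.220), and -0.35 without Ly6C-low library 3. Per TPM of Neu1 it stood at 7.01 ± 0.368 in Ly6C-high and 8.80 ± 0.973 in Ly6C-low libraries, which did not overlap. Per TPM of Glb1 it stood at 73.1 ± 10.6 and 88.0 ± 5.89, which did.

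Ctsh, an aminopeptidase, had 61.6, 66.9 and 61.1 CPM in Ly6C-high and 55.6, 55.8 and 52.2 CPM in Ly6C-low libraries. It was the 1 member whose Ly6C-high libraries all lay above the Ly6C-low libraries, with a log2 fold change of 0.21 (SE 0.09, adjusted p = 0.311). In its case 40.2% of the TPM in Ly6C-high came from a transcript annotated for nonsense-mediated decay.

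The abundant proteases spread most within the Ly6C-low group. Ctsd had 2582, 2287 and 2346 CPM in Ly6C-high and 2731, 2165 and 1711 CPM in Ly6C-low libraries. Its log2 fold change was 0.13 (SE 0.15), and -0.02 without Ly6C-low library 3, which was the lowest of the 6. Ctsb had 879, 748 and 754 CPM in Ly6C-high and 1024, 868 and 605 CPM in Ly6C-low libraries, with log2 fold changes of -0.07 (SE 0.17) and -0.25 with and without that library. The ratio of Ctsd to Ctsb in TPM was apart between the groups, at 3.74 ± 0.150 in Ly6C-high and 3.29 ± 0.172 in Ly6C-low libraries. Each gene by itself overlapped, and the ratio has no background share. A retained-intron transcript held 56.0% of the Ctsb TPM in Ly6C-high and 55.8% in Ly6C-low libraries.

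Ctss, the protease best known for cutting the invariant chain, had a log2 fold change of -0.23 (SE 0.11, adjusted p = 0.374), Lgmn, which cuts after asparagine, of -0.23 (SE 0.19), and Ctsz, a carboxypeptidase, of -0.14 (SE 0.14). Tpp1, a tripeptidyl peptidase, stood at -0.07 (SE 0.17) and Ctsl at -0.02 (SE 0.11). All 5 overlapped between the groups. Lgmn stood at -0.39, Ctsz at -0.28, Tpp1 at -0.24 and Ctsl at 0.08 without Ly6C-low library 3. Without Ly6C-low library 1 Tpp1 stood at 0.14 and Ctsb at 0.10.

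Of the membrane proteins, Mcoln1, the cation channel TRPML1 that releases lysosomal calcium, had 5.55, 5.17 and 6.66 CPM in Ly6C-high and 7.74, 6.76 and 9.33 CPM in Ly6C-low libraries. The groups were apart by a narrow margin, and the log2 fold change was -0.45 (SE 0.17, adjusted p = 0.291), or -0.32 without Ly6C-low library 3. Scarb2, the receptor that carries glucocerebrosidase to the lysosome, had 149, 127 and 128 CPM in Ly6C-high and 171, 156 and 147 CPM in Ly6C-low libraries. Its lowest Ly6C-low library lay just under its highest Ly6C-high library. The log2 fold change was -0.23 (SE 0.10, adjusted p = 0.320).

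Lamp1 and Lamp2, the paired glycoproteins of the membrane, had log2 fold changes of -0.07 (SE 0.09) and 0.20 (SE 0.12, adjusted p = 0.472), and Lamp1 per TPM of Lamp2 stood at 0.316 ± 0.0177 in Ly6C-high and 0.381 ± 0.0473 in Ly6C-low libraries, which did not overlap. Npc1, which passes cholesterol from Npc2 across the membrane, stood at -0.13 (SE 0.10), and Npc2 per TPM of Npc1 at 1.45 ± 0.0573 and 1.33 ± 0.0737, with Ly6C-high above. A retained-intron transcript held 18.6% of the Npc1 TPM in Ly6C-high and 19.2% in Ly6C-low libraries, with 31.4% in Ly6C-low library 3. These ratios, too, have no background share. Cd63, a tetraspanin also found on azurophil granules, stood at -0.07 (SE 0.11), and Cd68 at 0.08 (SE 0.21). Cd68 varied widely in the Ly6C-low group, from 72.9 CPM in library 3 to 137 in library 1, and its log2 fold change was -0.12 without library 3 and 0.32 without library 1. Lamp2 stood at 0.10, Cd63 at 0.06 and Npc1 at -0.20 without library 3. Of the others, Tfeb had a log2 fold change of -0.08 (SE 0.10), Grn, whose product is cut into granulins in the lysosome, of -0.05 (SE 0.15), and Acp2, an acid phosphatase, of -0.22 (SE 0.18). Without Ly6C-low library 3 these were -0.16, -0.19 and -0.31, and without Ly6C-low library 1 Grn stood at 0.14.

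Lamp2 is spliced to alternative last exons that give 3 proteins with different tails: LAMP-2A, the receptor of chaperone-mediated autophagy, LAMP-2B and LAMP-2C. Here Lamp2-202 was taken as the LAMP-2B transcript, Lamp2-201 as LAMP-2A and Lamp2-203 as LAMP-2C. The tails were not checked against protein sequences. The LAMP-2B transcript held 58.2, 54.4 and 54.1% of the gene's TPM in Ly6C-high and 53.7, 55.3 and 51.5% in Ly6C-low libraries. The LAMP-2A transcript held 40.8, 44.3 and 43.2% in Ly6C-high and 45.5, 43.5 and 47.4% in Ly6C-low libraries. LAMP-2C held less than either by far, at 0.491 ± 0.253% and 0.294 ± 0.0608%. The groups overlapped for all 3.

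**Figure D4:**
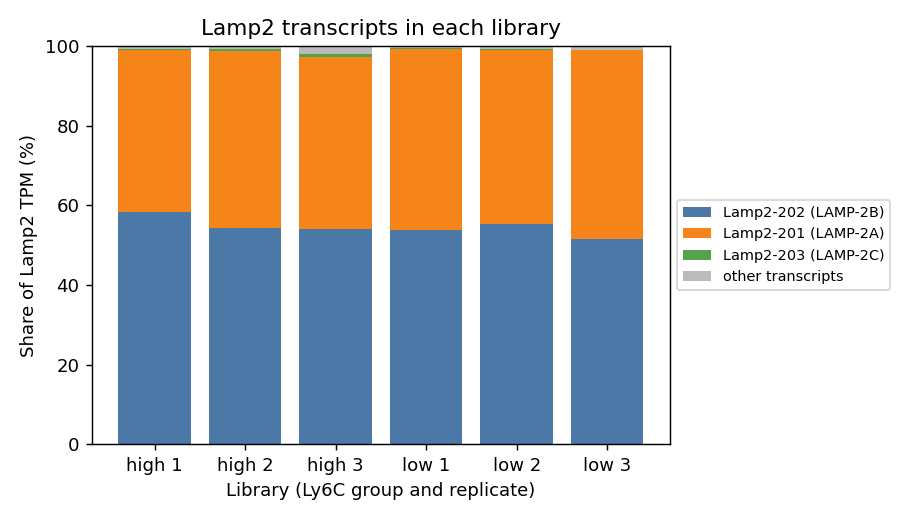
Share of Lamp2 TPM (%) held by each annotated transcript in each library, stacked to 100%. The transcripts taken as LAMP-2B (Lamp2-202) and LAMP-2A (Lamp2-201) make up nearly all of it in every library. Their group means are 55.5% and 42.8% in Ly6C-high and 53.5% and 45.5% in Ly6C-low.

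Among the 40 members, 11 had 2 or more coding transcripts that each held at least 10% of the gene's TPM, 25 transcripts in all, and the groups overlapped for 22 of these. The 3 that did not overlap were in Ctsa and in Acp2, a gene under 10 TPM. The share of all transcripts that do not overlap was not worked out, so this count has no background and only describes the members. In Ctsa the transcript Ctsa-203 held 18.1 ± 0.891% in Ly6C-high and 13.3 ± 2.07% in Ly6C-low libraries, and Ctsa-210 held 13.3 ± 1.25% and 14.8 ± 0.389%. The leading transcript, Ctsa-202, held 57.7 ± 1.41% and 57.9 ± 1.93%. kallisto divides shared reads by estimate, so these shares carry that uncertainty too.

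Read against the promoter windows, 11 tested members held an E-box and 22 did not. With an E-box, 10 of 11 had a log2 fold change below 0, with a median of -0.23 and a range of -0.56 to 0.13, and 5 of the 11 (45.5%) had Ly6C-low libraries all above, beside 16.1% of all tested genes with an E-box. Without one, 14 of 22 were below 0, with a median of -0.06 and a range of -0.56 to 0.21, and 2 of the 22 (9.09%), Gm2a and Ppt1, had Ly6C-low libraries all above, beside 10.7% of all tested genes without one. Ctsd was the E-box member above 0. Without Ly6C-low library 3, which this split includes, Ctsd stood at -0.02 and Ctsl at 0.08. Over all tested genes the medians were -0.05 for the 990 genes with an E-box (58.4% below 0) and 0.00 for the 7673 without (50.8% below 0). In the other lysosomal lists below, the medians were -0.06 for 20 genes with an E-box and -0.04 for 56 without. Of the tested members under 10 TPM, Sgsh, Arsa, Mcoln1, Lgmn, Gaa, Glb1 and Naglu held an E-box and Acp2 did not. All of these were below 0. The remaining E-box members stood at -0.32 (Ctsa), -0.07 (Lamp1), -0.02 (Ctsl) and 0.13 (Ctsd). An E-box and a low level cannot be told apart here. The members were listed with this contrast known, so the split describes them and tests nothing.

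**Figure D5:**
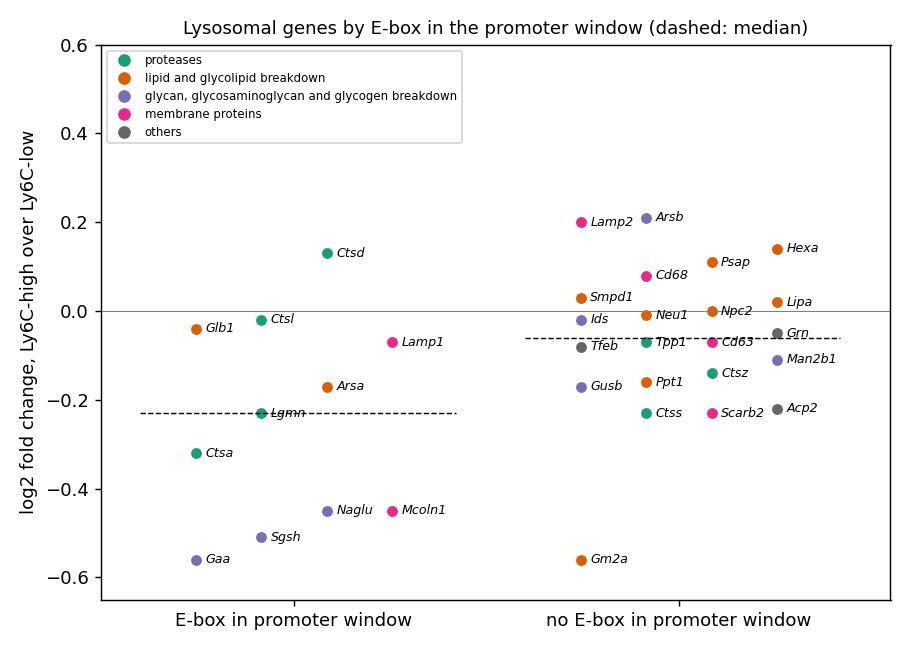
Log2 fold change (Ly6C-high over Ly6C-low) of the tested members with a promoter window, split by whether the window holds CACGTG, coloured by role, with each side's median as a dashed line. The medians are -0.23 with an E-box and -0.06 without, and Gm2a, without one, lies at -0.56. Most tested members under 10 TPM are on the E-box side.

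Other lysosomal genes, in lists set up by function, are set beside the members. Of 25 other hydrolases tested, 16 were below 0 and the median was -0.08, and without Ly6C-low library 3 they were 18 and -0.23. Among these Smpdl3a (275 ± 11.4 TPM), a relative of acid sphingomyelinase, and Fuca1 (125 ± 14.4 TPM), the fucosidase, were the most abundant, with log2 fold changes of 0.05 (SE 0.09) and -0.08 (SE 0.08). Of the 17 subunits of the proton pump 7 were below 0 and the median was 0.03, which turned to 11 and -0.05 without that library. Its most abundant subunits were Atp6v1g1 (355 ± 14.3 TPM) and Atp6v1b2 (271 ± 30.6 TPM).

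Of 25 other membrane proteins and transporters 16 were below 0, with a median of -0.07 (-0.10 without that library), led by Laptm5 (631 ± 72.0 TPM) and Cd164 (135 ± 17.6 TPM). Of 13 genes that sort proteins to the lysosome 9 were below 0, with a median of -0.07 (-0.16 without it), led by Vps35 and Sort1. Of 17 tested genes of the TFEB family and of nutrient sensing 9 were below 0, with a median of -0.02 (-0.05 without it), led by Lamtor1 and Lamtor4. edgeR called 0 genes in each of the 5 lists. At an unadjusted p of 0.05 with edgeR the genes higher and lower in Ly6C-high numbered 2 and 4, 0 and 2, 1 and 3, 1 and 2, and 1 and 1, in the order given. Of all genes tested, 6.92% were higher and 7.34% lower at that threshold. DESeq2 called 1, among the other hydrolases, beside 1.86% of the 6762 genes to which it gave an adjusted p.

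Markers of other blood cells were summed in the same libraries. The 8 eosinophil markers summed to 18.9 to 23.8 TPM in Ly6C-high and 37.9 to 42.2 TPM in Ly6C-low libraries, led by Siglecf and Ear2, with 4 of 5 tested below 0 and Prg2 and Epx at 0 in every Ly6C-high library. The 6 basophil and mast cell markers summed to 2.34 to 4.06 and 6.65 to 33.6 TPM, led by Mcpt8 and Prss34, with 5 of 5 tested below 0 and the highest sum in Ly6C-low library 3. Their median log2 fold change was -1.99, and -1.15 without that library. The filter on low counts can pass a gene through its higher group alone. A marker at 0 in every Ly6C-high library can be tested only through the Ly6C-low group, which fixes its sign. The numbers of scarce markers below 0 therefore describe the genes that passed and are no support for a difference. The 10 monocyte and macrophage markers summed to 106 to 112 and 117 to 135 TPM, mostly from Csf1r, and in CPM the sums overlapped, at 367 to 378 and 371 to 452. The genes of that list went the other way from its TPM sum: 5 of 7 tested were above 0. Their median log2 fold change was 0.79, and 0.60 without Ly6C-low library 3. With edgeR 4 of the 7 had an unadjusted p under 0.05, all higher in Ly6C-high, beside 6.92% of all genes tested. At the same threshold 3 of 5 eosinophil and 3 of 5 basophil and mast cell markers were lower in Ly6C-high, beside 7.34%. DESeq2 called 1 of the eosinophil markers, and edgeR called 0 in each of these lists. The limit of the filter given above holds for these numbers too. C1qa and C1qb were at 0 in all libraries. Their part in the levels of Gm2a and the other members apart between the groups was not tested. Sums of B cell, T and NK cell, dendritic cell, platelet and red cell markers overlapped between the groups, and those of 4T1 epithelial markers were at most 0.393 TPM, with Krt8 and Krt18 at 0. In sorted bulk samples a different mix of cells and a different amount of RNA per cell cannot be told apart.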

How the data were processed

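The authors quantified single-end reads of poly(A) libraries with kallisto and named build GRCm39, per the submitters' processing notes. For its version, index and strand setting, nothing is given in the sources used here. Each deposited table gave estimated counts and TPM for 117486 transcripts, per the file headers. Transcripts were matched to GENCODE M21 names (99.04%, with 99.747 to 99.767% of counts) and both values were summed to 35853 genes.

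Summed counts were rounded and tested with edgeR 4.0.16 in R 4.3.3 (quasi-likelihood, TMM scaling, filterByExpr with a minimum count of 10, group as the one term), with Benjamini-Hochberg adjustment over 11406 genes at 0.05 and a common biological coefficient of variation of 13.7%. The fitting step was also run on simulated counts, with the same dispersion for every gene and no library standing apart, unlike these data. That run does not show how far the calls here hold. Depth was 17192372 to 20973623 estimated counts, and replicates differed beyond sampling noise. Alternatives were DESeq2 1.42.0, limma 3.58.1 (voom), other scalings and filters, and each library left out. Levels between genes are compared in TPM, groups in CPM.

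Members, roles and lists were chosen with earlier results of these data known. All 40 members, Ly6c1, Ly6c2 and the 2 most abundant genes of each list could be named; 1 partner gene is not reported here. Promoter windows are RefSeq's, GRCm38.p6. Positions in GRCm39 were not used here.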

Additional observations from a re-analysis of the deposited data

How the results depend on the processing

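Over all genes, 4 passed the threshold. This became 61 with a replicate block, 8 with library size alone, 439 with no filter on low counts, 126 with DESeq2, 2 with length-scaled TPM and 2 to 22 when 1 library was left out, the highest without Ly6C-low library 3. Whether same-numbered libraries are pairs is not settled by the labels or the data. Their deviations correlated at 0.24, -0.04 and 0.24, and those of libraries with unlike numbers at -0.31 to 0.11. The values of 0.24 were thus the highest, but the labels state no pairing and same-numbered libraries were not treated as pairs.

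The count of members past the threshold went from 0 to 1 (Gm2a) with the replicate block or library size alone, to 2 (Gm2a and Sgsh) with no filter or DESeq2, and ranged from 0 to 1 with 1 library left out. Gm2a kept its direction in all 14 alternatives. It passed with the replicate block (-0.56, adjusted p = 0.0235), library size alone (-0.66, 0.0272), no filter (-0.57, 0.000139) and DESeq2 (-0.55, 0.000291). It did not pass with voom (adjusted p = 0.232), length-scaled TPM (0.216), DESeq2 size factors (0.138) or a mean count filter of 10 (0.153). With 1 library left out it ranged from -0.64 to -0.50, with adjusted p from 0.0194 to 0.568 (edgeR). The block changed the call of no other member.

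The members' median moved from -0.074 to -0.182 with library size alone, and from -0.16 to -0.038 with 1 library left out. The gap in Gm2a per Hexa, 1.16, ranged from 0.94 to 1.3 and that in summed TPM, 6.5%, from -0.2 to 12.7%. The cause of these shifts was not tested. Gaa, Naglu, Mcoln1 and Gla have few reads, which limits them. Alternatives for Sgsh, Gaa, Ctsa, Mcoln1, Naglu, Scarb2 and Ctsh were chosen after seeing the data; none reversed a direction.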
